A study of Mus musculus with 36 samples.

Results

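The genes described here are 10 secreted regulators of Wnt signalling in the mouse thymus. They comprise the ligands Wnt4, Wnt5a, Wnt10b and Wnt11, the frizzled-related proteins Sfrp1, Sfrp2 and Frzb, the Dickkopf proteins Dkk2 and Dkk3, and the Wnt inhibitory factor Wif1. Each was represented by the probe set annotated to its symbol alone that had the highest mean over all 36 arrays, out of 18193 genes with such a probe set. This choice of probe set used no comparison between cell populations or ages. The 10 genes themselves were chosen with earlier results of these data known, so their counts beside the shares of all genes are descriptions. Of the 10 genes, 8 passed a filter that required a value above the pooled median of all arrays (5.66 on the log2 scale) in at least 2 arrays, and they were tested among 14495 genes. Frzb passed that median in 1 array and Wif1 in none, so both are described without a test. Wnt11 passed through mTEChi arrays alone and Sfrp2 through the fibroblast arrays at 1 month alone, so a difference of these 2 genes in those cells was built into the filter. Dkk2 passed through fibroblast and mTEChi arrays alone, so its tests are no support for higher levels in those cells.

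All samples came from the thymus of male wild-type C57BL/6J mice with no treatment. By enzymatic digestion and cell sorting, the study isolated fibroblasts, epithelial cells of the cortex (cTEC), epithelial cells of the medulla with high CD80 and MHC class II (mTEChi) or with low CD80 and MHC class II (mTEClo), Sirpa+ dendritic cells (Sirpa+ DC) and Sirpa- dendritic cells (Sirpa- DC), each at 1, 3 and 6 months of age. RNA was amplified and hybridised to Affymetrix mouse whole-genome arrays, with 2 arrays for each population and age, and values are log2 signals. The sample labels name 1 mouse for each array while the study design names 2 mice for each age, so p-values may measure the spread between samples of the same animals. The number of arrays limits the precision, and the values carry no detection call.

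Array medians ranged between 5.61 and 5.75. Marker list means were highest in the matching sorts. The mean of the fibroblast markers (Pdgfra, Col1a1, Dcn and others) was 11.41 in fibroblasts and 5.23 to 6.93 in the other populations. That of the cTEC markers was 11.08 in cTEC and 4.86 to 9.08 elsewhere. Some single markers were also high elsewhere, with Dcn at 11.76 in cTEC and Pdgfrb at 9.95 in mTEChi. Foxn1, in the cTEC list, was 9.64 in mTEChi and 9.37 in cTEC. The mTEC markers averaged 10.56 in mTEChi and 9.64 in mTEClo, with 5.78 to 8.39 elsewhere, and the dendritic markers 9.08 in Sirpa+ DC and 8.98 in Sirpa- DC, with 5.43 to 5.92 elsewhere. Fibroblast arrays also carried thymocyte transcripts, with a marker mean of 10.36 against 6.24 to 7.92 in the other populations. The mean of the mural markers was 10.39 in fibroblasts and 6.15 to 8.20 in the other populations. One fibroblast array stood apart: the second 6-month replicate had a fibroblast marker mean of 8.99, while the other 5 fibroblast arrays had 11.06 to 12.70. Results that rest on it are given with and without it. Where an array is left out of a group of 2, the remaining one is assumed to vary like the other groups.

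Wnt proteins are secreted, lipid-modified glycoproteins that bind Frizzled receptors. Together with the co-receptors Lrp5 and Lrp6 they stabilise beta-catenin, which acts with TCF/LEF factors on target genes, while other ligands act through Ror and Ryk receptors without beta-catenin. Frizzled-related proteins and Wif1 bind the ligands outside the cell, and Dickkopf proteins such as Dkk2 bind the Lrp co-receptors. In the thymus, Wnt signals act on epithelial cells, where they were reported to regulate the transcription factor Foxn1, and on developing thymocytes.

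In the medulla, 3 of the 8 tested genes (Wnt10b, Wnt11 and Dkk2) had every mTEChi array above every mTEClo array, as did 15.1% of all genes tested. The opposite order was seen for 4 (Wnt4, Wnt5a, Sfrp1 and Dkk3), which 13.5% had, and Sfrp2 overlapped. Wnt11 passed the filter through mTEChi arrays alone, so a higher level there was built in. Dkk2 passed it through mTEChi and fibroblast arrays alone, so its order is no support for a higher level in mTEChi. The sequences just upstream of the first 3 genes and of Wnt4, the 1 gene of the opposite order that the promoter table held, are shown so that this contrast can be read beside the letters of the promoters. They are RefSeq sequence of build GRCm38.p6, 5′ to 3′ on the strand of the gene, ending at the last base before the annotated gene. Capitals mark matches to any of 3 motifs searched on both strands. These were the TCF/LEF core CTTTGA, the forkhead FOXN1 core GACGC and the TATA box TATAAA, and no match overlapped another.
Wnt10b (chr15:98778207-98778400, minus strand): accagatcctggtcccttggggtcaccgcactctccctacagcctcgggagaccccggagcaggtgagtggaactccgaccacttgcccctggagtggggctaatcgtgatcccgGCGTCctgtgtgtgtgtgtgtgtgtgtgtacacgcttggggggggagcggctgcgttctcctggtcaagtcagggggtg
Wnt11 (chr7:98834862-98835083, plus strand): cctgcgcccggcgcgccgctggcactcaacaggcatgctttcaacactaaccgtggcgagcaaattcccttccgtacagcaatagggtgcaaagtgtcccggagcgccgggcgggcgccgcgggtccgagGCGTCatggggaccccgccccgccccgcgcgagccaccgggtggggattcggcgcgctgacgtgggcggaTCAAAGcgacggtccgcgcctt
Dkk2 (chr3:132085042-132085265, plus strand): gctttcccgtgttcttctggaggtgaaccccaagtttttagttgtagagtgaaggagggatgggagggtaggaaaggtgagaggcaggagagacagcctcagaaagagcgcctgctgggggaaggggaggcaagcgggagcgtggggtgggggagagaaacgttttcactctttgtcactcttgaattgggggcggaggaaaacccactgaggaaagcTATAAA
Wnt4 (chr4:137277385-137277634, plus strand): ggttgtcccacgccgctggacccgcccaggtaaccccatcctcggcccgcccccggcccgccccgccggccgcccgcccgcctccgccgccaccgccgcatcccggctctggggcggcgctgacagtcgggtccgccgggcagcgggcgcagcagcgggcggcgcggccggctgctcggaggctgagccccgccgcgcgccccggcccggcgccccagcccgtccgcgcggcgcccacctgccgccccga
The promoter table held 7 of the 10 genes, and Wnt5a, Sfrp1 and Dkk3 were not in it. In the 250 bases before each start site, Wnt10b held GACGC on the opposite strand at positions -135 to -131. Wnt11 held GACGC at -120 to -116 and CTTTGA at -50 to -45, both on the opposite strand. It also held TATAAA at -29 to -24, a stretch that is not printed in full. A further Wnt11 start site lies inside the annotated gene (window 56.8% G+C with 16 CpG), and which site the TATAAA precedes was not recorded. Dkk2 held TATAAA at -32 to -27, and Wnt4 held none of the 3 motifs in this window. Of the other genes in the promoter table, Frzb held CTTTGA at -95 to -90 and Wif1 held TATAAA at -232 to -227. Both were on the opposite strand, and Sfrp2 held none of the 3 motifs. Over 32817 promoters of the table, 13.8% held CTTTGA, 22.6% held GACGC and 12.4% held TATAAA. The Wnt4 window was 85.2% G+C with 44 CpG, the Wnt11 window 70.8% with 37, the Wnt10b window 66.8% with 14 and the Dkk2 window 55.6% with 7, where the median promoter had 52.4% and 6. These matches describe letters and were not tested for binding.

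**Figure D1:**
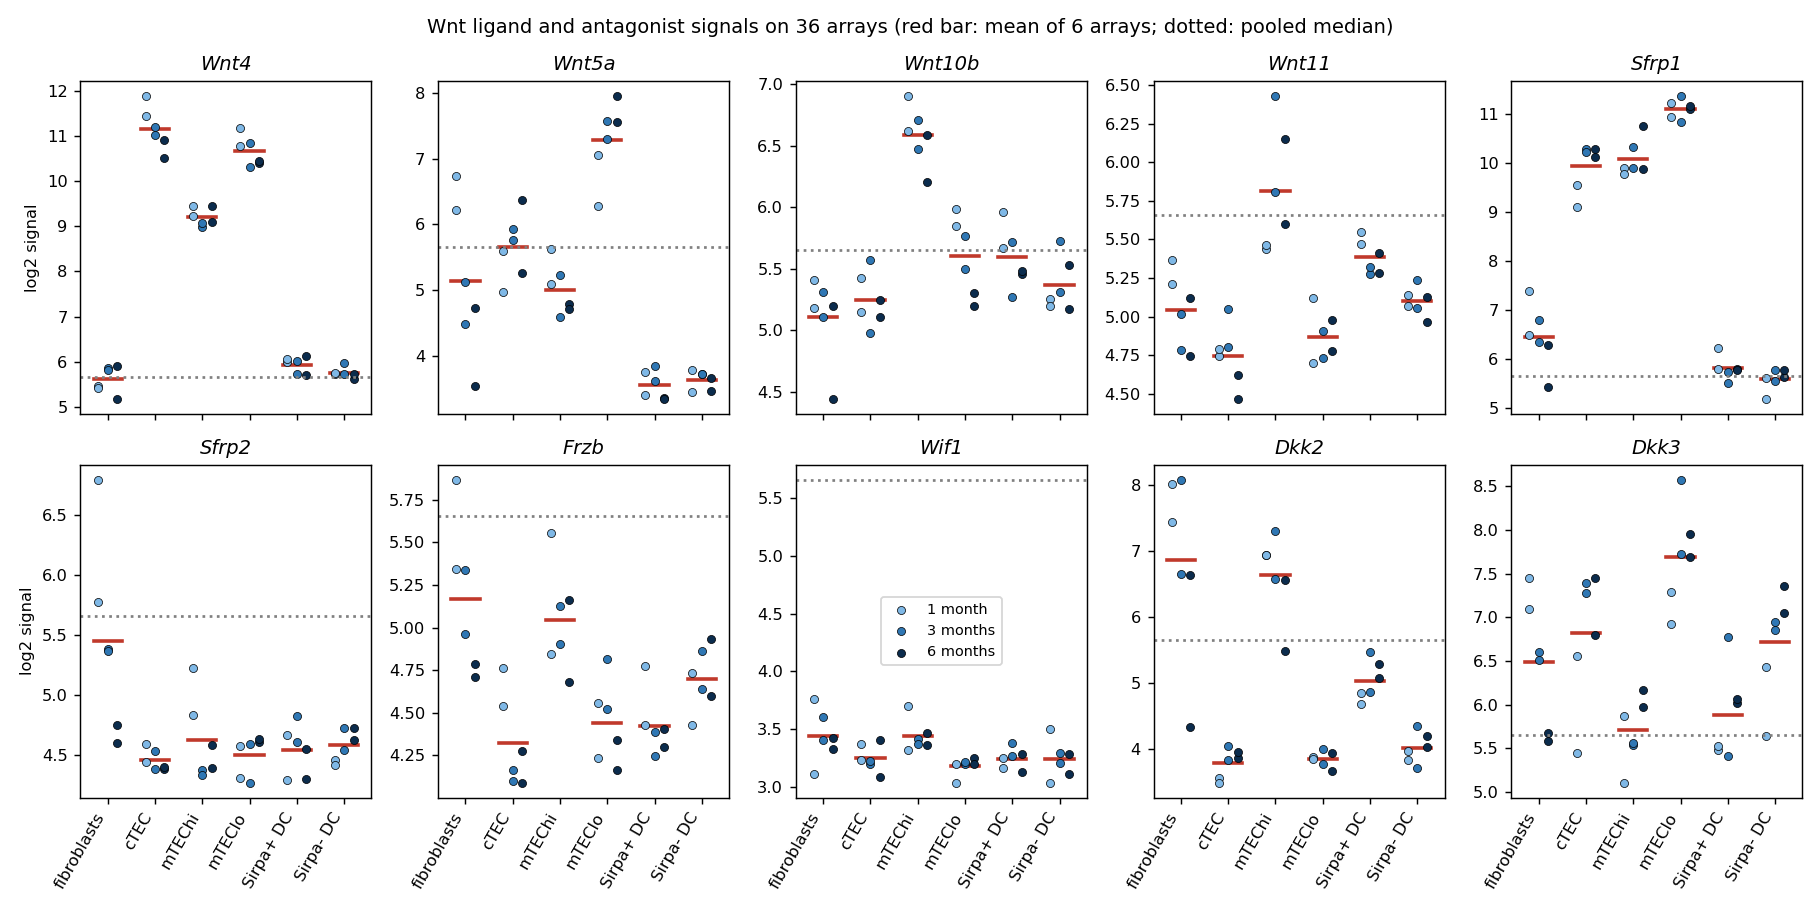
Log2 signal of each of the 10 genes in all 36 arrays. Each panel is 1 gene, the populations run along the horizontal axis, each point is 1 array, the colour gives the age of the mice, red bars are means of 6 arrays and the dotted line is the pooled median of 5.66. Wnt4 and Sfrp1 lie high in all 3 epithelial populations, Wnt10b and Wnt11 are highest in mTEChi, and Dkk2 is highest in fibroblasts and mTEChi.

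Wnt4, a ligand made by thymic epithelium, separated epithelial cells from all other cells (probe set 1450782_at; gene on chromosome 4, 137277635 to 137299501, GRCm38.p6). Its lowest, median and highest values were 10.51, 11.11 and 11.88 in cTEC, 8.99, 9.16 and 9.46 in mTEChi and 10.30, 10.60 and 11.19 in mTEClo. Fibroblast arrays ranged between 5.17 and 5.90, Sirpa+ DC arrays between 5.70 and 6.13, and Sirpa- DC arrays between 5.62 and 5.96. Every epithelial array therefore lay above every array of the other 3 populations, and cTEC and mTEClo overlapped. cTEC averaged 11.16 ± 0.47 (SD, n = 6), against 7.43 over the other 30 arrays, a difference of 3.73 ± 0.10 (SE; limma, two-sided, Benjamini-Hochberg adjusted p = 1.5e-19). mTEChi was lower than mTEClo, with means of 9.21 ± 0.20 and 10.66 ± 0.34 (SD, n = 6 each) and a difference of -1.44 ± 0.13 (SE, limma adjusted p = 1.13e-09). In the order of levels cTEC stood 0.50 above mTEClo (limma adjusted p = 0.0051), less than the 2-fold that a call between populations required here in addition to an adjusted p under 0.05. Among the 3 low populations, Sirpa+ DC did not pass the test against Sirpa- DC (adjusted p = 0.417), nor did fibroblasts against Sirpa- DC (adjusted p = 0.357). In sorted bulk samples such as these, fewer cells of a type and less RNA per cell cannot be told apart.

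Wnt5a, a ligand that signals mostly without beta-catenin, was highest in mTEClo (1436791_at; chromosome 14, 28504543 to 28527448). mTEClo arrays had a lowest, median and highest value of 6.28, 7.43 and 7.95. The same values were 4.97, 5.68 and 6.37 in cTEC, 4.59, 4.94 and 5.62 in mTEChi and 3.53, 4.93 and 6.73 in fibroblasts. Neither dendritic population exceeded 3.84 in any array, with means of 3.55 ± 0.22 in Sirpa+ DC and 3.64 ± 0.15 in Sirpa- DC (SD, n = 6 each). The lowest mTEClo array overlapped the highest cTEC and fibroblast arrays. mTEClo averaged 7.29 ± 0.58 (SD, n = 6), against 4.6 over the other arrays, which is 6.46-fold (2.69 ± 0.16 log2, SE, limma adjusted p = 3.09e-13). In mTEChi, every array lay below every mTEClo array (5.01 ± 0.39 against 7.29 ± 0.58, SD, n = 6 each; difference -2.28 ± 0.21, SE, limma adjusted p = 1.07e-09). The order of the next 3 populations was cTEC, fibroblasts and mTEChi: fibroblasts lay 0.51 below cTEC in the test (log2 difference -0.51, adjusted p = 0.0399, under 2-fold) and did not pass against mTEChi (0.13, adjusted p = 0.59). With all 4 Wnt5a probe sets averaged, both dendritic populations no longer reached 2-fold below the rest (-0.66 in Sirpa+ DC and -0.61 in Sirpa- DC), and 1 of those probe sets, 1456976_at, correlated at -0.21 with the one used over the 18 group means.

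Wnt10b, a ligand of the beta-catenin branch, was highest in mTEChi (1426091_a_at; chromosome 15, 98770712 to 98778206). Its lowest, median and highest values were 6.21, 6.61 and 6.90 in mTEChi, and the other 30 arrays ranged between 4.44 and 5.99. Thus no other array reached an mTEChi array; of all genes tested, 6.8% had every mTEChi array above all others. The mean was 6.59 ± 0.23 in mTEChi (SD, n = 6), against 5.38 in the rest, a difference of 1.20 ± 0.11 (SE, limma adjusted p = 3.74e-10). Against mTEClo alone (5.6 ± 0.32, SD, n = 6) the difference was 0.98 ± 0.14 (SE, limma adjusted p = 1.36e-06), just under 2-fold. The other 5 populations had means of 5.11 in fibroblasts, 5.25 in cTEC, 5.6 in mTEClo, 5.59 in Sirpa+ DC and 5.37 in Sirpa- DC, and none of the 10 pairs among them differed by 2-fold.

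Wnt11, a ligand known for directing cell movement and branching in embryonic tissues, was also highest in mTEChi but dimmer (1450772_at; chromosome 7, 98835084 to 98854747). mTEChi arrays had 5.44, 5.70 and 6.43 as lowest, median and highest value, and Sirpa+ DC arrays had 5.28, 5.36 and 5.55. These 2 populations overlapped, while every mTEChi array was above every array of cTEC, mTEClo, fibroblasts and Sirpa- DC. Wnt11 passed the filter through mTEChi arrays alone, so the tests that follow are no support for a higher level there. The difference between mTEChi and the rest was 0.79 ± 0.09 (SE; means 5.82 and 5.03, limma adjusted p = 4.68e-08), which is below 2-fold. Of the 15 pairs of populations, 1 passed both thresholds for Wnt11: cTEC was lower than mTEChi, with 4.75 ± 0.20 against 5.82 ± 0.40 (SD, n = 6 each; difference -1.07 ± 0.12, SE, limma adjusted p = 2.27e-08). It fell short of 2-fold without the first mTEChi replicate at 3 months (-0.97) or at 6 months (-0.98). The same held under quantile normalization (-0.997) and with the thymocyte marker mean as a covariate (-0.89).

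Sfrp1, an antagonist that binds Wnt proteins through a Frizzled-like domain, followed epithelial cells as Wnt4 did, with the highest level in mTEClo instead of cTEC (1428136_at; chromosome 8, 23411383 to 23449632). The lowest, median and highest values were 10.85, 11.14 and 11.37 in mTEClo, 9.78, 9.90 and 10.76 in mTEChi, and 9.11, 10.18 and 10.30 in cTEC. Every mTEClo array was above the other 30 arrays, which held for 0.731% of all genes tested, although the gap to the highest mTEChi array was small (10.85 and 10.76). mTEClo averaged 11.11 ± 0.19 (SD, n = 6), against 7.58 in the rest, which is 11.6-fold (3.53 ± 0.14 log2, SE, limma adjusted p = 5.56e-17). Fibroblasts averaged 6.46 ± 0.64, Sirpa+ DC 5.81 ± 0.23 and Sirpa- DC 5.59 ± 0.22 (SD, n = 6 each), all below every epithelial array. cTEC and mTEChi did not pass the test against each other (difference -0.16 ± 0.17, SE, limma adjusted p = 0.459). mTEChi was lower than mTEClo by -1.02 ± 0.17 log2 (SE, limma adjusted p = 2.1e-05). That difference slipped below 2-fold without the second mTEChi replicate at 3 months (-0.95) or 6 months (-0.88), without the second mTEClo replicate at 1 month (-0.97) or the first at 3 months (-0.93), under quantile normalization (-0.94) and with the mean of all Sfrp1 probe sets (-0.91).

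Sfrp2, a close relative of Sfrp1, was near the low end of the scale everywhere except in fibroblasts (1448201_at; chromosome 3, 83765750 to 83774314). Fibroblast arrays had 4.61, 5.38 and 6.79 as lowest, median and highest value, and the other 30 arrays ranged between 4.27 and 5.23. The older fibroblast arrays overlapped the other populations and the younger ones did not. Sfrp2 passed the filter through the fibroblast arrays at 1 month alone, so its test in fibroblasts is no support for a higher level there. Fibroblasts averaged 5.45 ± 0.79 (SD, n = 6), against 4.54 in the rest, a difference of 0.90 ± 0.10 (SE, limma adjusted p = 2.33e-08) and thus under 2-fold. The means of the other 5 populations lay between 4.46 and 4.63, and no pair among them passed the test.

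Frzb, another frizzled-related antagonist, and Wif1, which binds Wnt proteins through its own domain, were dim in all populations. Frzb (1416658_at; chromosome 2, 80411970 to 80447396) averaged 5.17 ± 0.44 in fibroblasts and 5.05 ± 0.31 in mTEChi (SD, n = 6 each). The remaining populations had means of 4.32 to 4.70. Its single array above the pooled median was the first fibroblast replicate at 1 month, at 5.87, and the second probe set of Frzb correlated at 0.25 with it over the 18 group means. Wif1 (1425425_a_at; chromosome 10, 121034004 to 121100642) had population means between 3.19 and 3.44.

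Dkk2, a Dickkopf protein that binds Lrp co-receptors, was high in 2 populations of different origin (1420512_at; chromosome 3, 132085266 to 132180304). The lowest, median and highest values were 4.34, 7.04 and 8.08 in fibroblasts, 5.48, 6.76 and 7.30 in mTEChi and 4.68, 4.97 and 5.47 in Sirpa+ DC. In cTEC, mTEClo and Sirpa- DC every array lay between 3.50 and 4.35. The low fibroblast value of 4.34 was the array that stood apart, and the other 5 were at 6.64 or above. Dkk2 passed the filter through fibroblast and mTEChi arrays alone, so the tests that follow are no support for higher levels in those cells. Fibroblasts averaged 6.86 ± 1.38 (SD, n = 6), against 4.67 in the rest, a difference of 2.19 ± 0.21 (SE, limma adjusted p = 2.21e-09), or 2.57 (adjusted p = 3.6e-12) without that array. For mTEChi the difference from the rest was 1.92 ± 0.21 (SE; means 6.64 and 4.71, limma adjusted p = 2.01e-08), and from mTEClo it was 2.78 ± 0.28 (SE; means 6.64 and 3.86, limma adjusted p = 4.4e-09). Fibroblasts and mTEChi did not pass the test against each other (0.23 ± 0.28, SE, adjusted p = 0.485). With the thymocyte marker mean as a covariate, the comparison of fibroblasts with the rest was 1.58 with an adjusted p of 0.329.

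Between the dendritic populations, Dkk2 was the 1 call among the 8 genes tested. Sirpa+ DC averaged 5.04 ± 0.30 and Sirpa- DC 4.02 ± 0.23 (SD, n = 6 each), without overlap, an order that 6.4% of all genes tested had. Wnt11 had it too, with 5.28 as the lowest Sirpa+ DC value and 5.24 as the highest Sirpa- DC value. The difference was 1.02 ± 0.28 (SE, limma adjusted p = 0.0083). Of all genes tested, 3.87% were called higher and 1.5% lower. The Dkk2 call sat at the 2-fold limit: the difference was 0.93 with the thymocyte marker mean as a covariate, 0.915 to 0.997 without the first Sirpa- DC replicate or the second Sirpa+ DC replicate of any age, and 0.995 with equal array medians.

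Dkk3, a divergent Dickkopf protein that is not a clear Wnt antagonist in every setting, was highest in mTEClo and lowest in mTEChi (1448669_at; chromosome 7, 112116019 to 112159482). mTEChi arrays had 5.10, 5.72 and 6.17 as lowest, median and highest value, against 6.92, 7.70 and 8.58 in mTEClo arrays. Those 2 populations did not overlap, while cTEC, fibroblasts and Sirpa- DC overlapped both and Sirpa+ DC overlapped mTEChi. mTEChi averaged 5.70 ± 0.38 and mTEClo 7.69 ± 0.57 (SD, n = 6 each), a difference of -1.99 ± 0.22 (SE, limma adjusted p = 1.88e-08). mTEClo was 2.59-fold above the rest (1.37 ± 0.17 log2, SE, limma adjusted p = 1.25e-07). cTEC averaged 6.82, Sirpa- DC 6.71 and fibroblasts 6.49, and neither fibroblasts against cTEC (adjusted p = 0.198) nor fibroblasts against Sirpa- DC (adjusted p = 0.38) passed the test. mTEChi was also called lower than the rest (-1.01 ± 0.17, SE, limma adjusted p = 8.87e-06), a call at the 2-fold limit. It was lost, with values of -0.89 to -0.99, without the second replicate of cTEC, mTEChi or Sirpa- DC at 1 month, of Sirpa+ DC at 3 months or of mTEChi at 6 months, and without the first replicate of mTEClo at 3 months or of cTEC at 6 months. With the mean of both Dkk3 probe sets it was -0.79.

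Set against the rest of the series, 2 of the 8 tested genes were higher in cTEC (Wnt4, Sfrp1) and 1 lower (Dkk2), where 9.73% of all genes tested were called higher and 6.37% lower. In mTEChi 4 were higher (Wnt4, Wnt10b, Sfrp1, Dkk2) and 1 lower (Dkk3), with 13.9% of all genes higher and 5.31% lower. In mTEClo 4 were higher (Wnt4, Wnt5a, Sfrp1, Dkk3) and 1 lower (Dkk2), with 9.42% higher and 5.37% lower. Fibroblasts had Dkk2 higher and Wnt4 and Sfrp1 lower, with 8.38% higher and 9.98% lower, and the same 3 calls without the array that stood apart. With the thymocyte marker mean as a covariate, Wnt4 kept its call there, while Dkk2 (above) and Sfrp1 (-1.22, adjusted p = 0.196) did not pass. Sirpa+ DC had 3 genes lower (Wnt4, Wnt5a, Sfrp1), with 10.2% of all genes lower and 6.7% higher. The highest positive difference there was that of Wnt11 (0.27, limma unadjusted p = 0.00728), under 2-fold. Sirpa- DC had those 3 and Dkk2 lower, with 13% of all genes lower and 6.2% higher, and its highest positive difference was that of Dkk3 (0.20, limma unadjusted p = 0.249). Without the fibroblast arrays, an alternative chosen after the data were seen, Wnt4 in mTEChi (0.84) and Dkk2 in Sirpa- DC (-0.81) no longer reached 2-fold. The 6 comparisons share arrays and are not independent of each other. As Dkk2 passed the filter through fibroblast and mTEChi arrays alone, its calls as higher there are no support. Over the 15 pairs of populations, 53 of the 120 gene-by-pair differences passed both thresholds, where 22.1% did so over all genes tested.

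**Figure D2:**
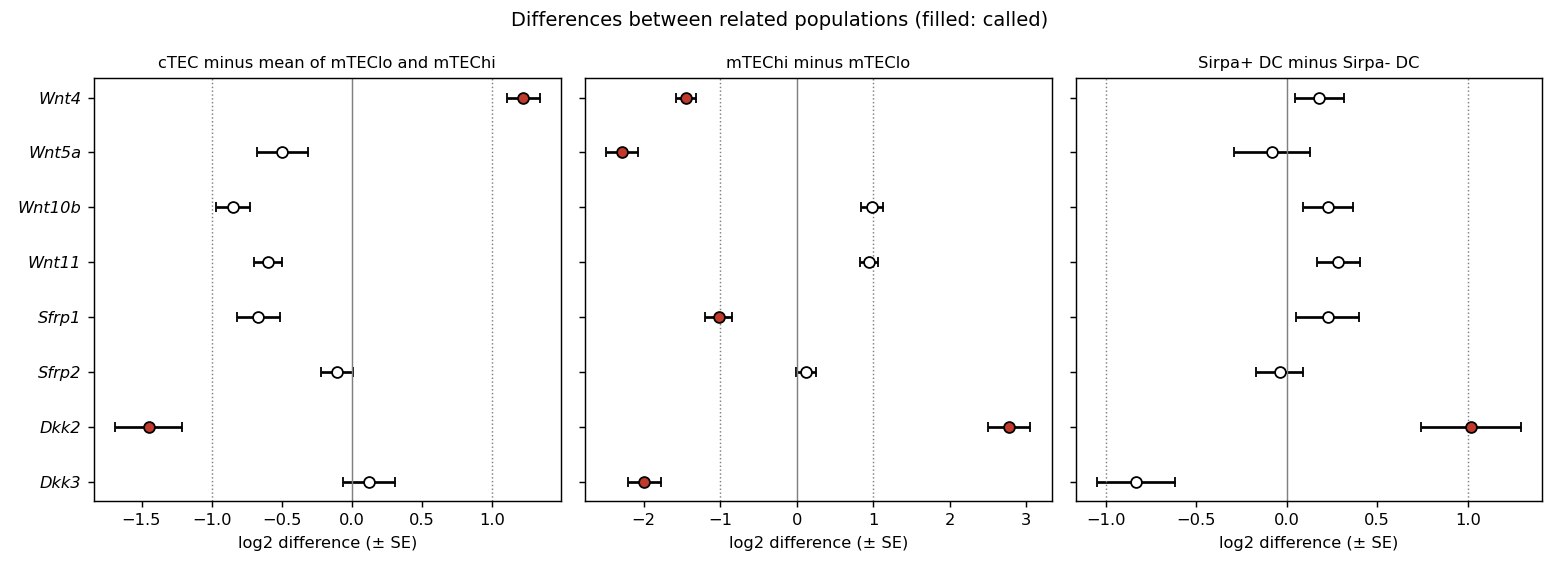
Log2 differences of the 8 tested genes (rows) with standard errors from the limma fit, in 3 panels for cTEC minus the mean of both medullary populations, mTEChi minus mTEClo, and Sirpa+ DC minus Sirpa- DC. Points right of 0 are higher in the population named first, dotted lines mark 2-fold and filled points are called; Dkk2 stands at 2.78 and Wnt5a at -2.28 between mTEChi and mTEClo.

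Between the 2 medullary populations, 5 of the 8 tested genes were called. Dkk2 was higher in mTEChi, where 11.8% of all genes were, and Wnt4, Wnt5a, Sfrp1 and Dkk3 were lower, where 7.81% of all genes were. Counting arrays alone, Wnt10b, Wnt11, Dkk2 and the dim, untested Wif1 had every mTEChi array above every mTEClo array (15.1% of all genes tested did), and Wnt4, Wnt5a, Sfrp1 and Dkk3 had every mTEChi array below (13.5% did). Sfrp2 overlapped between the 2 populations, and so did Frzb. Wnt11 passed the filter through mTEChi arrays alone, so its order is no support. Dkk2 passed it through mTEChi and fibroblast arrays alone, so its differences from mTEChi are no support either. Between cortex and medulla, 2 genes were called, where 5.4% of all genes were higher and 8.24% lower: Wnt4 was higher in cTEC than in the mean of mTEChi and mTEClo (1.23 ± 0.12, SE, limma adjusted p = 2.04e-09), and Dkk2 was lower (-1.45 ± 0.24, SE, limma adjusted p = 1.49e-05). The Wnt4 value in cTEC overlapped that in mTEClo, and Dkk2 in cTEC did not pass the test against mTEClo (difference -0.06, adjusted p = 0.902).

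Age was compared within each population, 2 arrays against 2, with an adjusted p under 0.05 as the call. Calls fell mostly in fibroblasts. At 6 months against 1 month, 5 of the 8 tested genes fell in fibroblasts (Wnt5a, Sfrp1, Sfrp2, Dkk2, Dkk3), where 20.4% of all genes tested fell. Without the array that stood apart, 3 fell (Wnt5a, Sfrp2, Dkk3), where 8.96% of all genes did. The median difference of the 8 genes was -1.34, against -0.07 over all genes tested, and without that array it was -0.86, against -0.09 over all genes. Sfrp2 entered the test through its 1-month fibroblast arrays. At 3 months against 1 month, Wnt5a and Sfrp2 fell (10.4% of all genes did), and at 6 months against 3 months Sfrp2 and Dkk2 fell (9.24% did), while without the array that stood apart neither passed (3.16% of all genes fell). The comparisons share arrays of the same ages. In a limma fit of the fibroblast arrays alone, several calls were lost. At 6 months against 1 month these were Dkk2 (adjusted p = 0.102) and Sfrp1 (0.118). At 3 months against 1 month they were Wnt5a (0.0992) and Sfrp2 (0.18), and at 6 months against 3 months Sfrp2 (0.29) and Dkk2 (0.25).

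Wnt5a in fibroblasts had 6.73 and 6.22 at 1 month, 5.13 and 4.49 at 3 months, and 4.73 and 3.53 at 6 months. All later arrays were below the 1-month arrays, and the 3- and 6-month arrays overlapped. At 3 months the difference from 1 month was -1.67 ± 0.36 (SE, limma adjusted p = 0.00197), and at 6 months it was -2.35 ± 0.36 (SE, limma adjusted p = 3.75e-05). Without the 6-month array that stood apart, the 6-month difference was -1.75 (adjusted p = 0.0047). The 3-month call was lost without the first 1-month array (-1.41, adjusted p = 0.0531) or the second 3-month array (-1.35, adjusted p = 0.0625).

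Sfrp2 in fibroblasts had 5.78 and 6.79 at 1 month, 5.39 and 5.37 at 3 months, and 4.75 and 4.61 at 6 months. The 3 ages did not overlap. As Sfrp2 passed the filter through the 1-month arrays alone, its tests against 1 month are no support for a fall. Sfrp2 fell by 6 months (-1.60, limma adjusted p = 1.41e-05, and -1.53 with an adjusted p of 0.000937 without the array that stood apart). Its differences at 3 months from 1 month (-0.91, adjusted p = 0.00554) and at 6 months from 3 months (-0.70, adjusted p = 0.0362) were less stable. The first was -0.40 (adjusted p = 0.196) without the second 1-month array and -0.90 (adjusted p = 0.055) without the second 3-month array, and the second was lost in each of the 4 fits that left out a 3- or 6-month fibroblast array (adjusted p between 0.0531 and 0.234).

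Dkk3 in fibroblasts had 7.45 and 7.10 at 1 month, 6.61 and 6.51 at 3 months, and 5.67 and 5.59 at 6 months. Again the ages did not overlap, and replicates lay close together. The 6-month level was lower than at 1 month by -1.65 ± 0.37 log2 (SE, limma adjusted p = 0.00139), and by -1.60 (adjusted p = 0.0206) without the array that stood apart.

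The falls of Dkk2 and Sfrp1 rested on that array. Dkk2 in fibroblasts had 7.44 and 8.01 at 1 month, 8.08 and 6.65 at 3 months, and 6.64 and 4.34 at 6 months. Its difference at 6 months from 1 month was -2.23 ± 0.48 (SE, limma adjusted p = 0.000879) with all arrays and -1.08 (adjusted p = 0.0898) without the last. From 3 months it was -1.87 (adjusted p = 0.00888) with all arrays, -0.72 (adjusted p = 0.409) without the last array and -1.16 (adjusted p = 0.216) without the first 3-month array. Sfrp1 in fibroblasts had 7.39 and 6.49 at 1 month, 6.79 and 6.35 at 3 months, and 6.30 and 5.43 at 6 months, with overlap between neighbouring ages. Its 6-month difference from 1 month was -1.08 (adjusted p = 0.00739), and was lost without the last array (-0.64, adjusted p = 0.219) or the first 1-month array (-0.63, adjusted p = 0.224).

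**Figure D3:**
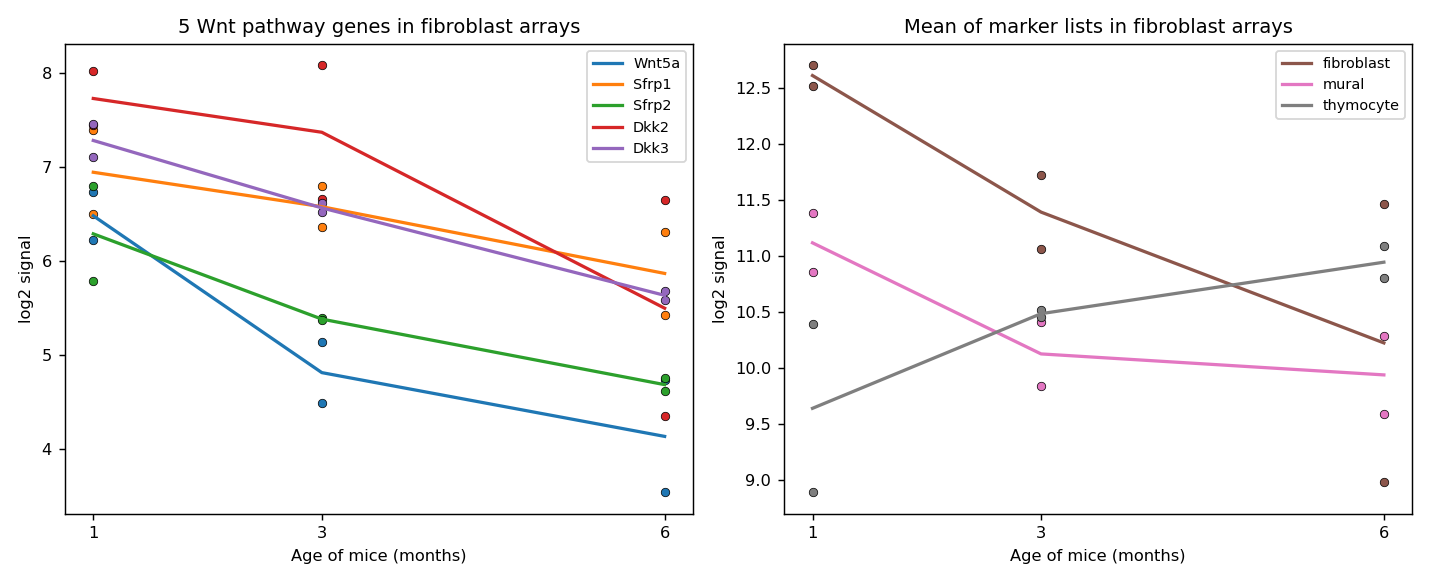
Values of 5 of the genes (left) in the 6 fibroblast arrays against the age of the mice in months, beside the means of the fibroblast, mural and thymocyte marker lists in the same arrays (right). Each point is 1 array on the log2 scale and lines join the means of 2 arrays. Wnt5a, Sfrp2 and Dkk3 decline over the 3 ages while fibroblast markers average 12.6, 11.4 and 10.2 and thymocyte markers 9.64, 10.5 and 10.9 at 1, 3 and 6 months.

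Markers of the sort moved with these age differences. In the fibroblast arrays, all 7 fibroblast markers were lower at 6 months than at 1 month (median -2.33) and 5 of 6 mural markers were (median -1.05), while 6 of 11 thymocyte markers were higher (median 1.29). The mean of the fibroblast markers was 12.70 and 12.52 at 1 month, 11.72 and 11.06 at 3 months, and 11.46 and 8.99 at 6 months. That of the thymocyte markers was 8.89 and 10.39, 10.52 and 10.45, and 10.80 and 11.08 at the same ages. The mean difference between 3′ and 5′ control probe sets, a measure of RNA integrity, also fell, with 3.15 and 2.37 at 1 month, 2.28 and 1.94 at 3 months, and 1.86 and 1.72 at 6 months. With the thymocyte marker mean as a covariate, 4 of the 5 genes kept their call at 6 months and Sfrp1 did not (-0.75, adjusted p = 0.163). The part of the fibroblast content of the sort in these results was not tested.

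Outside fibroblasts, 2 age differences were called. In cTEC, Wnt4 had 11.88 and 11.45 at 1 month, 11.19 and 11.02 at 3 months, and 10.91 and 10.51 at 6 months. The ages did not overlap, and Wnt4 fell by 6 months (-0.95 ± 0.23, SE, limma adjusted p = 0.0125, where 3.74% of all genes fell in cTEC). It missed the threshold without the first 1-month array (-0.74, adjusted p = 0.229) or the second 6-month array (-0.75, adjusted p = 0.173). Dkk3 in cTEC had 5.44 and 6.55 at 1 month, 7.40 and 7.28 at 3 months, and 7.45 and 6.80 at 6 months. It was higher at 3 months than at 1 month (1.34 ± 0.37, SE, limma adjusted p = 0.0348, where 1.52% of all genes were higher at 3 months in cTEC), and without the low first 1-month array this was 0.78 (adjusted p = 0.564). The call was lost too without either 3-month array (1.28 with an adjusted p of 0.193, and 1.40 with 0.104). In the cTEC arrays the thymocyte marker mean was 8.58, 7.13 and 8.06 at 1, 3 and 6 months, and 3 of 6 cTEC markers were lower at 3 months than at 1 month. The difference between 3′ and 5′ control probe sets averaged 2.53, 1.99 and 2.00 there. With the thymocyte marker mean as a covariate, Wnt4 at 6 months was -1.03 (adjusted p = 0.00946) and Dkk3 at 3 months was 1.33, with an adjusted p of 0.199. In a fit of the cTEC arrays alone the adjusted p of Dkk3 was 0.0938. The part of RNA integrity and of the cTEC content in these results was not tested.

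Differences just short of the threshold were seen in the epithelium. Sfrp1 in cTEC had 9.11 and 9.57 at 1 month, 10.29 and 10.24 at 3 months, and 10.30 and 10.12 at 6 months. Both later ages lay above the first without overlap, with adjusted p = 0.0756 at 3 months (0.93) and 0.0868 at 6 months (0.87). The first passed under quantile normalization (1.18, adjusted p = 0.0136) and both passed with the mean of all Sfrp1 probe sets (0.61 and 0.56, adjusted p = 0.0445 and 0.0472). With the thymocyte marker mean as a covariate neither passed (0.57 and 0.74, limma adjusted p = 0.542 and 0.155). Wnt5a in mTEClo had 7.07 and 6.28 at 1 month, 7.30 and 7.57 at 3 months, and 7.95 and 7.55 at 6 months. Its difference at 6 months from 1 month was 1.08 (limma adjusted p = 0.0772). Dkk2 in mTEChi went the other way, with -0.92 at 6 months against 1 month and also against 3 months. Neither was called, and both passed in limma without the fibroblast arrays (adjusted p = 0.038 and 0.0424). The difference between 3′ and 5′ control probe sets averaged 2.67 and 1.91 in mTEClo at 1 and 6 months, and its part was not tested.

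The F-test of whether age differences vary between populations was passed by 3 of the 8 tested genes, where 15.7% of all genes passed: Wnt5a (limma adjusted p = 0.00495), Sfrp2 (0.00762) and Dkk3 (0.0142). Sfrp2 had passed the filter through its 1-month fibroblast arrays alone, so an age difference in those cells was built in and its pass is no support. With the thymocyte marker mean as a covariate, 1 of the 8 genes passed the F-test. Dkk3 was lower at 6 months than at 1 month in fibroblasts, while in the other 5 populations both 6-month arrays lay above both 1-month arrays, although the difference did not pass the test in any of those 5 (adjusted p = 0.0709 in cTEC). Sirpa- DC, for instance, had 5.64 and 6.43 at 1 month, 6.85 and 6.95 at 3 months, and 7.05 and 7.36 at 6 months. Wnt5a likewise fell in fibroblasts and had positive differences in mTEClo and cTEC that did not pass the test. Its 6-month means in mTEChi (4.75, against 5.35 at 1 month) and in both dendritic populations were lower, also without a call. Averaged over the 6 populations, 4 of the 8 genes passed at 6 months against 1 month. Dkk3 was higher (0.41, limma adjusted p = 0.0356), where 14.9% of all genes were. Wnt4 (-0.28, adjusted p = 0.0229), Wnt10b (-0.31, adjusted p = 0.0169) and Sfrp2 (-0.32, adjusted p = 0.0095) were lower, where 21.7% of all genes were. The Sfrp2 pass is no support here either, since this mean includes the fibroblast arrays (-1.60 there). Its 6-month mean lay above its 1-month mean in mTEClo (4.62 and 4.45) and Sirpa- DC (4.68 and 4.44), and below it in the other populations. The Dkk3 call was lost in 12 of the 36 fits without 1 array, with arrays of every population among those left out (0.32 to 0.42, adjusted p between 0.0508 and 0.0898). The Wnt4 call was lost without the first 1-month or second 6-month replicate of cTEC, the first 1-month replicate of mTEClo, the first 6-month replicate of Sirpa+ DC or the second 6-month replicate of fibroblasts (-0.22 to -0.24, adjusted p between 0.0539 and 0.0613).

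**Figure D4:**
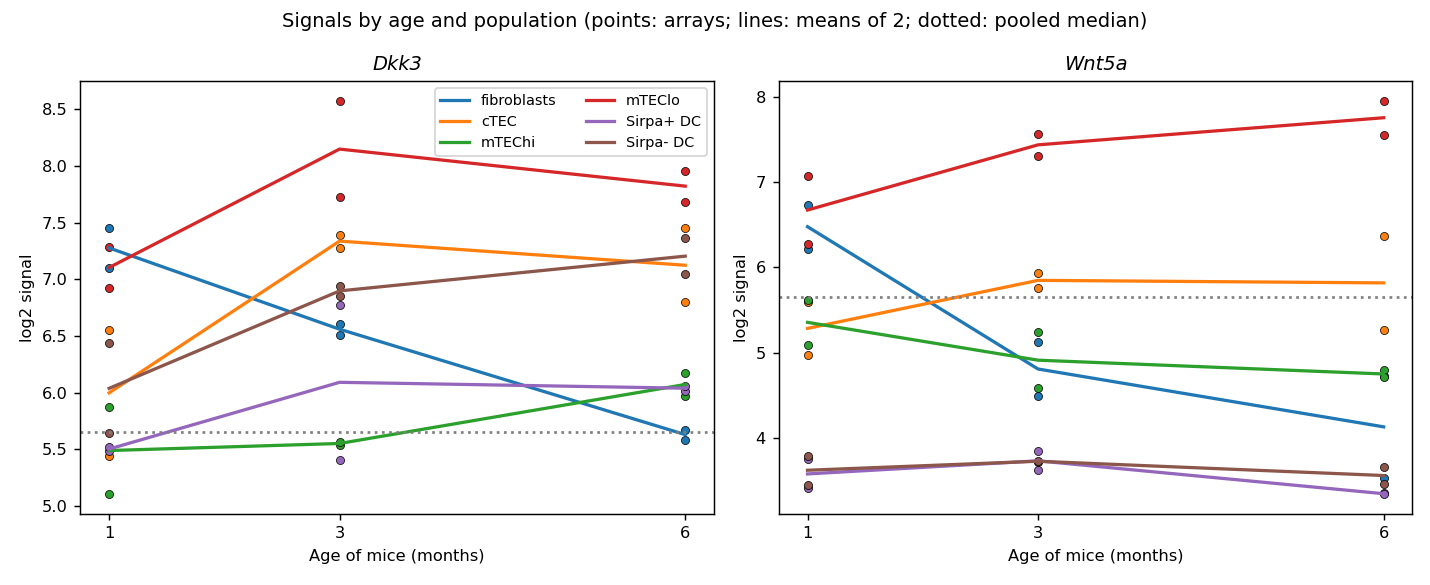
Dkk3 and Wnt5a on the log2 scale against the age of the mice in months, in each of the 6 populations. Points are single arrays, lines join the means of 2 arrays, and the dotted line is the pooled median of 5.66. In fibroblasts both genes decline over the 3 ages, Dkk3 to 5.63 and Wnt5a to 4.13 at 6 months, while Dkk3 is higher at 6 months than at 1 month in the other 5 populations.

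Genes whose pattern over the 18 group means was most like that of each gene were taken from all other tested genes by Pearson correlation; group means share arrays, ages and cell composition, so these values are descriptions. For Wnt4 they were Slc46a2 (0.997), Dsc3 (0.990) and Minar2 (0.990), and for Sfrp1 they were Rbfox1 (0.990), Eya4 (0.988) and Lurap1l (0.988). Wnt5a was most like Pcdhb20 (0.970), Tgfb3 (0.959) and Tcaf1 (0.954). The pattern of Wnt10b was closest to Tdrd9 (0.976), Slc5a10 (0.963) and Cplx1 (0.962), and that of Wnt11 to Comp (0.918), Atp2b2 (0.915) and S100a5 (0.907). Sfrp2 lay near Svep1 (0.956), Tspan11 (0.930) and Hand2 (0.928), and Dkk2 near Pth1r (0.945), Angpt2 (0.944) and Gdf10 (0.933). Dkk3 had no close counterpart, with Mgat4b (0.842), Fam220a (0.842) and Rnf150 (0.831) as the nearest. Among the genes themselves, Sfrp1 and Wnt4 correlated at 0.94, Sfrp1 and Wnt5a at 0.82 and Wnt11 and Wnt10b at 0.75.

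Further pathway genes were read from 6 lists. They named 76 genes, 74 had a probe set and 58 were tested. Of those 58, 14 were higher and 2 lower in cTEC than in the rest, where 9.73% and 6.37% of all genes tested were. In mTEClo 11 were higher and 2 lower (9.42% and 5.37% of all genes), and in fibroblasts 10 and 6 (8.38% and 9.98%). In Sirpa+ DC 1 was higher and 15 lower (6.7% and 10.2%), and in Sirpa- DC 2 and 21 (6.2% and 13%). In mTEChi 9 were higher (13.9%). The median difference was 0.29 in cTEC, against -0.07 over all genes tested, and -0.52 in Sirpa- DC, against -0.03.

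**Figure D5:**
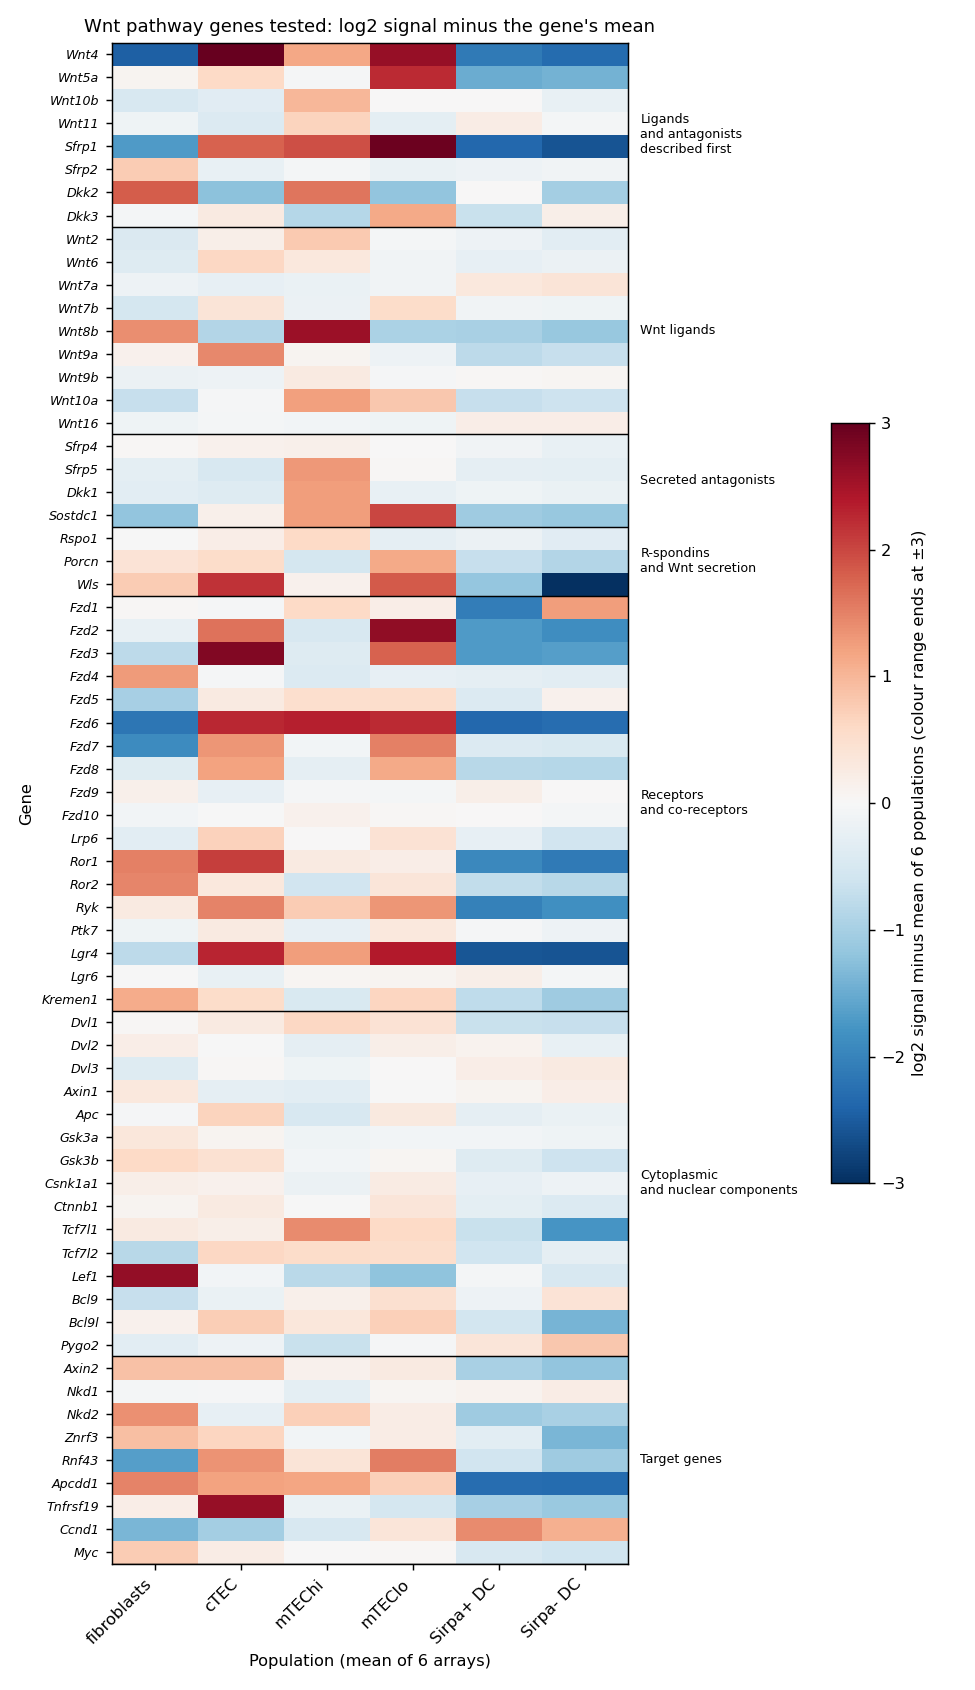
Mean log2 signal over 6 arrays of the 8 tested genes and of the 58 further pathway genes tested (rows, by list) in each population (columns), as the difference from that gene's mean of the 6 populations. Red is above and blue below that mean, and the colours end at a difference of 3 either way. The Frizzled receptors Fzd2, Fzd3, Fzd7 and Fzd8 are above it in cTEC and mTEClo, with Fzd2 at 10.01 in mTEClo, and Wnt8b is above it in mTEChi at 8.33 and in fibroblasts at 7.16.

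Among 15 other ligands, 9 were tested. Wnt8b, a ligand of the beta-catenin branch, averaged 8.33 ± 0.66 in mTEChi and 7.16 ± 1.24 in fibroblasts (SD, n = 6 each), and between 4.63 and 4.89 elsewhere. It was higher in mTEChi than in the rest (3.07, limma adjusted p = 2.54e-13) and higher than in mTEClo in every array (3.50, adjusted p = 6.67e-12). Wnt10a was higher in mTEChi as well (1.48, adjusted p = 1.59e-11). Wnt9a was higher in cTEC, with every array above the other 30, as held for 1.41% of all genes tested (7.39 against 5.67; 1.72, adjusted p = 2.89e-11). Of 8 other antagonists, 4 were tested and 3 of them were higher in mTEChi, where 13.9% of all genes tested were. These were Sfrp5 (1.57, limma adjusted p = 1.4e-12), Dkk1 (1.51, adjusted p = 3.82e-12) and the Lrp-binding Sostdc1 (1.49, adjusted p = 9.64e-09). Dkk1 averaged 6.28 in mTEChi and 4.65 to 4.90 elsewhere. It passed the filter through mTEChi arrays alone, so its test is no support for a higher level there. Sostdc1 was highest in mTEClo (2.40 above the rest, adjusted p = 2.05e-12).

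For Wnt secretion, Wls carries the ligands to the cell surface and Porcn attaches their lipid. Wls averaged 10.16 ± 0.19 in cTEC, 8.11 ± 0.33 in mTEChi, 9.84 ± 0.45 in mTEClo, 8.76 ± 0.56 in fibroblasts, 6.84 ± 0.54 in Sirpa+ DC and 4.23 ± 0.18 in Sirpa- DC (SD, n = 6 each). It was lower in Sirpa- DC than in every other array (-4.51, limma adjusted p = 2.13e-18), higher in Sirpa+ DC than in Sirpa- DC (2.61, adjusted p = 1.3e-10) and lower in mTEChi than in mTEClo (-1.73, adjusted p = 2.92e-08). Porcn was lower in mTEChi than in mTEClo too (5.34 against 7.0; -1.66, adjusted p = 2.04e-09).

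Of 18 receptors and co-receptors tested, 8 were higher than the rest in cTEC (9.73% of all genes were), 7 in mTEClo (9.42%) and 2 in mTEChi (13.9%). Fzd3 (3.32, adjusted p = 4.83e-14) and Ror1 (2.48, adjusted p = 3.16e-09) were among those of cTEC, and Fzd2 (3.19, adjusted p = 7.9e-15) was among those of mTEClo. Fzd6 had means of 10.59, 10.66 and 10.56 in cTEC, mTEChi and mTEClo, and of 5.98 to 6.16 in the other 3 populations. Between the medullary populations, 6 receptors were lower in mTEChi, where 7.81% of all genes were. Fzd2 was 6.88 in mTEChi and 10.01 in mTEClo (-3.13, adjusted p = 1.92e-12), and Fzd3 was 6.22 and 8.37 (-2.15, adjusted p = 2.05e-08). Fzd1 separated the dendritic populations, with 6.63 ± 0.26 in Sirpa+ DC and 9.96 ± 0.22 in Sirpa- DC (SD, n = 6 each; -3.33, adjusted p = 7e-12).

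Of 15 cytoplasmic and nuclear components tested, 1 was higher in fibroblasts, where 8.38% of all genes tested were. This was Lef1 (9.97 against 6.79, limma adjusted p = 8.1e-16), with every array above the other 30, an order that 1.68% of all genes tested had. The thymocyte markers were also highest in fibroblasts. Tcf7l1, a repressor of Wnt targets, was higher in mTEChi (1.70, adjusted p = 1.72e-11). Of 9 target genes tested, 4 were higher and 1 lower in cTEC (9.73% and 6.37% of all genes tested were). In fibroblasts 4 were higher and 2 lower (8.38% and 9.98%). In each medullary population 1 was higher (13.9% of all genes in mTEChi and 9.42% in mTEClo). Axin2, a feedback inhibitor induced by beta-catenin, had means of 8.43 ± 0.34 in cTEC, 8.42 ± 0.42 in fibroblasts, 7.69 ± 0.39 in mTEChi and 7.83 ± 0.31 in mTEClo, and 6.57 ± 0.18 in Sirpa+ DC and 6.36 ± 0.18 in Sirpa- DC (SD, n = 6 each). It was higher in cTEC than in the rest (1.06, adjusted p = 7.24e-08). Tnfrsf19 was higher in cTEC than in all other arrays (8.68 against 5.54; 3.14, adjusted p = 1.48e-15).

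With age, most calls among the pathway genes were in fibroblasts. Of the 58, 5 were higher and 19 lower in fibroblasts at 6 months than at 1 month (15.8% and 20.4% of all genes were), with a median of -0.39 against -0.07 over all genes tested. Without the array that stood apart, 2 were higher and 10 lower (5.85% and 8.96% of all genes). Among 18 receptors, 10 were lower with all arrays and 6 without that array, to be read against the same shares of 20.4% and 8.96%. Fzd2 was lower (6.23 at 6 months and 8.22 at 1 month, -1.98, adjusted p = 0.000159), also without the array (-1.19, adjusted p = 0.0188). Ror1, a receptor for Wnt5a, was lower with all arrays (6.35 and 8.76, -2.41, adjusted p = 0.00146) and not called without the array (-0.79, adjusted p = 0.145). The target Ccnd1, a D cyclin, was lower (6.83 and 10.06, -3.23, adjusted p = 1.38e-06, and -2.41 without the array). Wnt8b was higher (8.51 and 6.94, 1.57, adjusted p = 0.00546, and 1.60 without the array). The same fibroblast and thymocyte markers moved with these differences, and their part was not tested.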

How the data were processed

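Stromal populations of the thymus were profiled on 36 arrays. The deposited values are log2 signals normalized by the authors in Gene Expression Commons, per the design text, and GCRMA is named in the submitters' processing notes; they were used as deposited. Of 45101 probe sets, 34945 carried 1 gene symbol, 932 several, 9160 none and 64 were controls. Each gene took its probe set with the highest mean. Genes above the pooled median of 5.66 in at least 2 arrays were fitted with limma 3.58.1 in R 4.3.3, with 1 mean for each of 18 groups, 18 residual degrees of freedom, an intensity trend, two-sided tests and Benjamini-Hochberg adjustment over 14495 genes. The script was tested on simulated data. Ages weighed equally in population comparisons.

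The 10 genes and all lists were chosen with earlier results of these data known. Named genes were all 10, the 3 most alike to each, and up to 4 called genes with the largest differences per pathway list and comparison. Alternatives covered the dim filter, averaging of probe sets, quantile and median scaling, the trend, the arrays fitted, stricter fold limits, a thymocyte covariate, a fixed and a random replicate block and leaving out each array.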

Additional observations from a re-analysis of the deposited data

Results flagged for a closer look

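In 60 gene-by-population groups of 6 arrays, 4 arrays lay farther from the others than Dixon's 95% critical value allows, which chance gives in about 1 of 20 groups. Wnt10b was 4.44 in the second fibroblast replicate at 6 months, where the other 5 fibroblast arrays had 5.11 to 5.41; this is the array with the low fibroblast marker mean. Sfrp1 was 5.19 in the second Sirpa- DC replicate at 1 month and 5.55 to 5.78 in the others. Frzb was 4.77 in the second Sirpa+ DC replicate at 1 month and 4.25 to 4.43 in the others. Wif1 was 3.04 in the second mTEClo replicate at 1 month and 3.20 to 3.25 in the others.

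Age differences varied between populations in the limma F-test for Wnt5a (adjusted p = 0.00495), Sfrp2 (adjusted p = 0.00762) and Dkk3 (adjusted p = 0.0142); for Sfrp2 the filter, passed through 1-month fibroblast arrays alone, had built in such a difference. All 3 genes were lower at 6 months than at 1 month in the fibroblast arrays, whose marker means also moved with age. Wnt5a and Sfrp2 had lower 6-month means in some other populations too, without a call. In mTEChi, Wnt5a averaged 5.35 at 1 month and 4.75 at 6 months, and Sfrp2 5.03 and 4.49.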

How the results depend on the processing

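No difference of the 8 tested genes that was called with or without an alternative changed direction under it. Without the dim filter or the intensity trend all 94 called member comparisons held; quantile normalization kept 92 and equal medians 93. These scalings moved array means by -0.10 to 0.13 and -0.09 to 0.04.

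Counts of genes called that moved by over 1.5 times were as follows, with the reported count in brackets. The mean of all probe sets gave 3 (5) for mTEChi against the rest. Equal medians gave 0 (1) for Sirpa+ DC against Sirpa- DC. Fitting only the populations compared gave 1 (3) at 3 months against 1 month and 0 (2) at 6 months against 3 months. The thymocyte covariate gave 1 (3) for fibroblasts against the rest, 0 (1) for the dendritic pair and 1 (3) in the F-test. The limits of 4-fold for populations and 2-fold for ages gave 3 (5) for mTEClo, 1 (5) for mTEChi and 2 (4) for Sirpa- DC against the rest, 0 (2) for cTEC against the medullary mean, 2 (5) for mTEChi against mTEClo, 0 (1) for the dendritic pair, 30 (53) over all pairs, 1 (2) at 6 months against 3 months, and 0 (4) in the mean of the populations at 6 months against 1 month.

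Same-numbered arrays of an age were not treated as pairs, since their deviations correlated over 0.1 in only 4, 10 and 3 of 15 pairs of populations at 1, 3 and 6 months (0.06, 0.17 and 0.06 on average); whether they share animals is not known. A fixed replicate block of age and number changed 1 call (Sfrp1 in cTEC at 3 months against 1 month passed, adjusted p = 0.0469). As a random replicate block, chosen after the data were seen (consensus correlation 0.056), 2 (4) genes passed in the mean of the populations at 6 months against 1 month, with adjusted p = 0.0524 for Wnt4, 0.0772 for Dkk3, 0.0407 for Wnt10b and 0.0241 for Sfrp2.

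Leaving out 1 array gave 3 to 3 genes for cTEC, 4 to 5 for mTEChi, 5 to 5 for mTEClo, 3 to 4 for fibroblasts, 3 to 4 for Sirpa+ DC and 4 to 4 for Sirpa- DC against the rest, 2 to 2 for cTEC against the medullary mean, 4 to 6 for mTEChi against mTEClo, 0 to 1 for the dendritic pair and 52 to 57 over all pairs. For ages it gave 1 to 4 at 3 months against 1 month, 5 to 8 at 6 months against 1 month, 0 to 4 at 6 months against 3 months, 2 to 6 in the mean of the populations and 2 to 5 in the F-test. Leaving out all fibroblast arrays, chosen after the data were seen, kept 60 of the 62 calls that remained testable. The causes of these shifts were not tested. Signal limits the dim genes: Frzb and Wif1 lay below the pooled median in nearly every array, and Sfrp2 and Wnt11 passed it in 2 and 3 arrays.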

Other observations

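Pathway genes also differed with age outside fibroblasts. Fzd5, a Frizzled receptor, was lower at 6 months than at 1 month in cTEC (7.30 and 8.96, difference -1.66 ± 0.34, SE, limma adjusted p = 0.00359) and in mTEChi (7.36 and 8.82, -1.46 ± 0.34, SE, limma adjusted p = 0.00818). In cTEC the antagonist Sostdc1 was lower (4.99 and 6.25, -1.26, limma adjusted p = 0.032), and so was Apcdd1, a target gene that itself inhibits Wnt signalling (7.87 and 9.16, -1.29, limma adjusted p = 0.0202). In mTEChi the co-receptor Lrp6 (-0.71, limma adjusted p = 0.0402) and the scaffold Axin1 (-0.72, limma adjusted p = 0.0198) were lower. Of the 58 pathway genes tested, 3 were lower in cTEC, 3 in mTEChi and 1 in Sirpa- DC (Tcf7l1, -1.35, limma adjusted p = 0.0238) at 6 months against 1 month, where 3.74%, 3.34% and 0.366% of all genes were lower.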
